A study of Homo sapiens with 8 samples.

Results

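The nuclear genes for proteins of the mitochondrial ribosome were followed through 8 ribosome profiling libraries of human BJ fibroblasts. Members were the rows of both deposited footprint tables whose gene name starts with MRPL or MRPS and a number. This gave 64 genes of the 11940 listed in either table, 38 named MRPL for the large subunit and 26 named MRPS for the small subunit. BJ is an established line of human skin fibroblasts, and the labels give every group as BJ-HRAS. The groups were SNORA13 KO cells with 4-OHT, WT cells with 4-OHT, SNORA13 KO cells without 4-OHT and WT cells without 4-OHT. 4-OHT is 4-hydroxytamoxifen, given at 100 nM for 7 days, and SNORA13 is a small nucleolar RNA. The KO groups held clones 66 and 69 and the WT groups clones 15 and 54, each clone with and without 4-OHT, so every group had 2 libraries. Each genotype is thus known from 2 clones, and genotype and clone cannot be told apart. The cells with and without 4-OHT are in separate tables, so 4-OHT and any batch between the tables cannot be told apart either.

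The mitochondrial ribosome, or mitoribosome, translates the few mRNAs of the mitochondrial genome, which code for subunits of the respiratory chain and of the ATP synthase. Its RNAs are made inside the organelle, but all of its proteins are encoded in the nucleus, translated in the cytosol and imported. The footprints described here are therefore those of cytosolic ribosomes on the mRNAs of mitoribosomal proteins. Some of these proteins have counterparts in all kingdoms of life, some only in bacteria, and some occur only in mitochondria. RNA abundance was not analysed here, so a difference in footprints can lie in the mRNA level, in its translation or in both. In bulk libraries, fewer cells of a kind and less RNA per cell cannot be told apart.

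The values are RPKM, footprint reads scaled to gene length in kilobases and to library size, with the length taken as the whole gene from start to end, introns included. The approximate reads behind them were recovered from the values and came to between 190878 and 1710474 per library, fewest in KO clone 66 with 4-OHT. All 15 fibroblast markers were listed, at 3.24% to 3.81% of reads with 4-OHT and 7.72% to 9.85% without. Whether this difference bears on the results that follow was not tested. Summed markers of keratinocytes, melanocytes, endothelium, leukocytes and other epithelia were at or below 0.0401% with 4-OHT and 0.0381% without, but few of these markers were listed: 1 of 7 for keratinocytes, 1 of 7 for melanocytes, 2 of 6 for endothelium, 2 to 3 of 7 for leukocytes and 2 to 3 of 5 for epithelia. SNORA13 is noncoding and the tables list protein-coding genes, so the knockout itself was not checked here. Footprints as a whole differed between the tables. By limma-trend with Benjamini-Hochberg adjustment, 4-OHT went with higher footprints for 17.3% and lower ones for 10.7% of 8698 genes in KO clones, and for 13.6% and 8.15% in WT clones. After median-ratio scaling of the libraries the split turned, with 1009 higher and 1337 lower in KO clones against 1502 higher and 933 lower without that scaling. In WT clones it became 817 higher and 972 lower, against 1185 higher and 709 lower.

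Promoters are shown for some members with large rises with 4-OHT, since many members were higher together. They are not all such members. MRPL57 and MRPL9, which rose in both genotypes, are not shown, and MRPS18B is shown though limma-trend called it in KO clones only. The sequences are RefSeq, build GRCh38.p14, 5′ to 3′ on the gene's strand, and each ends at the base before the start that the RefSeq promoter table takes. For MRPL36 that start lies inside the whole RefSeq gene span, so its stretch is not upstream of the outermost start. They are MRPL17 chr11:6683341-6683460 (- strand), MRPL36 chr5:1799838-1799957 (- strand), MRPL52 chr14:22829707-22829886 (+ strand), MRPL27 chr17:50373185-50373304 (- strand), MRPL53 chr2:74472681-74472800 (- strand), MRPS10 chr6:42217862-42217981 (- strand) and MRPS18B chr6:30617720-30617839 (+ strand). Capitals mark matches on either strand to CCGGAAG (the core bound by ETS factors such as GABPA), AAGATGGC (the YY1 motif) or GCGCATGC (the NRF1 motif), all 3 being factors known for driving nuclear genes of mitochondrial proteins.
MRPL17: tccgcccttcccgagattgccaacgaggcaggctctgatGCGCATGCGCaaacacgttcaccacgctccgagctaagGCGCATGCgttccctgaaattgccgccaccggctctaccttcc
MRPL36: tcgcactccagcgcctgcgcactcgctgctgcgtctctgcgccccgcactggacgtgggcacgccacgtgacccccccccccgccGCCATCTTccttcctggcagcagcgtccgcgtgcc
MRPL52: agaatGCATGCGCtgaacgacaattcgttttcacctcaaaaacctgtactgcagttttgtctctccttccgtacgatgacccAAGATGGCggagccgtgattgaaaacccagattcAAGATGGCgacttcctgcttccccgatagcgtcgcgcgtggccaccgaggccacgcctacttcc
MRPL27: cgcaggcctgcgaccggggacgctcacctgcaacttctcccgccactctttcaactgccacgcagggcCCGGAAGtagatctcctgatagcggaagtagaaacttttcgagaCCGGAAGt
MRPL53: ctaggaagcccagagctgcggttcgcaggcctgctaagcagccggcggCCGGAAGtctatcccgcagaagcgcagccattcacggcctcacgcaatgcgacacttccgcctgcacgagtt
MRPS10: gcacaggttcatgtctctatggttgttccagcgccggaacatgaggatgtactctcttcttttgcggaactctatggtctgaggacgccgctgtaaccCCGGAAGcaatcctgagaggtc
MRPS18B: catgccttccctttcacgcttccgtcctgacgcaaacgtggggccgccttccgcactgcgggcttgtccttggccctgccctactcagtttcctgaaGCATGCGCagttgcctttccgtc

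In these stretches MRPL17 held 3 NRF1 matches, overlapping ones on both strands included, and MRPL52 held the YY1 letters at 2 places and the NRF1 letters farther upstream. MRPL27 held the ETS core at 2 places, MRPL53 and MRPS10 at 1 place each, MRPL36 the YY1 letters and MRPS18B the NRF1 letters. Over windows of 250 bases before to 50 after the start, 58 of the 64 members had a RefSeq promoter. The ETS core was in 25 of these 58 (43.1%), in 1749 of 9590 promoters of the other listed genes (18.2%) and in 10.7% of all 27303 promoters of the table. The YY1 letters were in 18 members (31.0%), in 4.83% of the other listed genes and in 3.03% of all promoters. NRF1 letters were in 4 members (6.90%), close to the 5.28% of the other listed genes and the 3.27% of all promoters. The windows of MRPL57 and MRPL9, which are not printed above, held none of the ETS, YY1 or NRF1 letters. By subunit, the ETS core was in 14 of 33 MRPL and 11 of 25 MRPS promoters, and the YY1 letters in 11 of 33 and 7 of 25. Among members that rose in both genotypes the share with either motif was no higher. The ETS core was in 11 of the 28 that rose in both genotypes and had a promoter, and in 7 of the 15 that were called in neither, and the YY1 letters were in 8 and 6 of them. A match is a run of letters, not a shown binding site.

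With 4-OHT the members together took a larger share of footprints in both genotypes. Their summed footprints made up 0.714% and 0.688% of the summed gene reads in KO clones 66 and 69 with 4-OHT, against 0.234% and 0.269% in the same clones without it. In WT clones 15 and 54 they made up 0.686% and 0.703% with 4-OHT, against 0.262% and 0.271% without. The means were 0.701% ± 0.018 with and 0.252% ± 0.025 without 4-OHT in KO clones (SD, n = 2 each), a 2.79-fold difference, and 0.695% ± 0.012 and 0.266% ± 0.0062 in WT clones (SD, n = 2 each), a 2.61-fold difference. No library with 4-OHT overlapped one without it, and Wilson 95% intervals, which cover counting error only, reached at most 0.752% in the shallowest library. With 2 libraries against 2 an exact permutation test can give no p below 0.333, so none is given for these sums.

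Gene by gene, 63 of the 64 members passed the read filter and 43 of them rose in KO clones at an adjusted p below 0.05 (limma-trend), against 17.3% of all genes tested. Calls given without a tool are those of limma-trend. In WT clones 33 of 63 rose, against 13.6% of all genes tested. None was called lower in either genotype, where 10.7% and 8.15% of all genes were. The median log2 change on the RPKM + 1 scale was 1.15 over members and 0.05 over all genes in KO clones, and 1.05 and 0.06 in WT clones. With limma-voom on the recovered reads 45 members were called higher in each genotype, against 21.4% of all genes in KO clones and 21.4% in WT clones. The same test called no member lower in KO clones, where 10.9% of all genes were, and 1 lower in WT clones, MRPL23, where 12.8% of all genes were. The voom scale moved the median of all genes to 0.22 in both genotypes. After median-ratio scaling 32 members were higher in KO clones, where 11.6% of all genes were, and 29 in WT clones, where 9.39% were. Members with a negative change, called or not, numbered 2 in KO and 1 in WT clones, 5 and 3 after median-ratio scaling, and 1 and 1 by limma-voom. The higher calls overlapped in 31 members, 72.1% of those in KO clones and 93.9% of those in WT clones, and 18 members were called in neither. The overlap over all genes is not given here, and the calls of both genotypes share the variances of 1 fit. Whether members overlap more than other genes was not tested.

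Leaving out single libraries lowered these counts. The counts over all genes fell too, except without KO clone 69 treated with 4-OHT, where they rose. In KO clones 20 members were called higher without KO clone 66 lacking 4-OHT, where 7.65% of all genes were. In WT clones 16 were called without clone 15 lacking 4-OHT, where 5.86% of all genes were, 18 without clone 54 lacking it, where 5.62% were, and 15 without clone 54 treated with it, where 6.13% were. By the values themselves, both KO clones with 4-OHT stood above both without it in 54 of 63 members, against 36.9% of all genes, and the same held in 59 members in WT clones, against 41.6% of all genes. Of all 64 members, 55 were higher with 4-OHT in 4 of 4 clones, 8 in 3 clones and MRPL23 in 1. The same count over all genes is not given here, so these numbers only describe the members. Over 10 alternatives of scaling, filter, fit and left-out library, MRPL17, MRPL36, MRPL52, MRPL53, MRPS14 and MRPS16 kept their calls in both genotypes throughout. In KO clones the calls of MRPS2, MRPS30 and MRPS35 were kept in 3 of these, that of MRPS34 in 2, and those of MRPL12, MRPL28 and MRPL41 in 5.

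**Figure D1:**
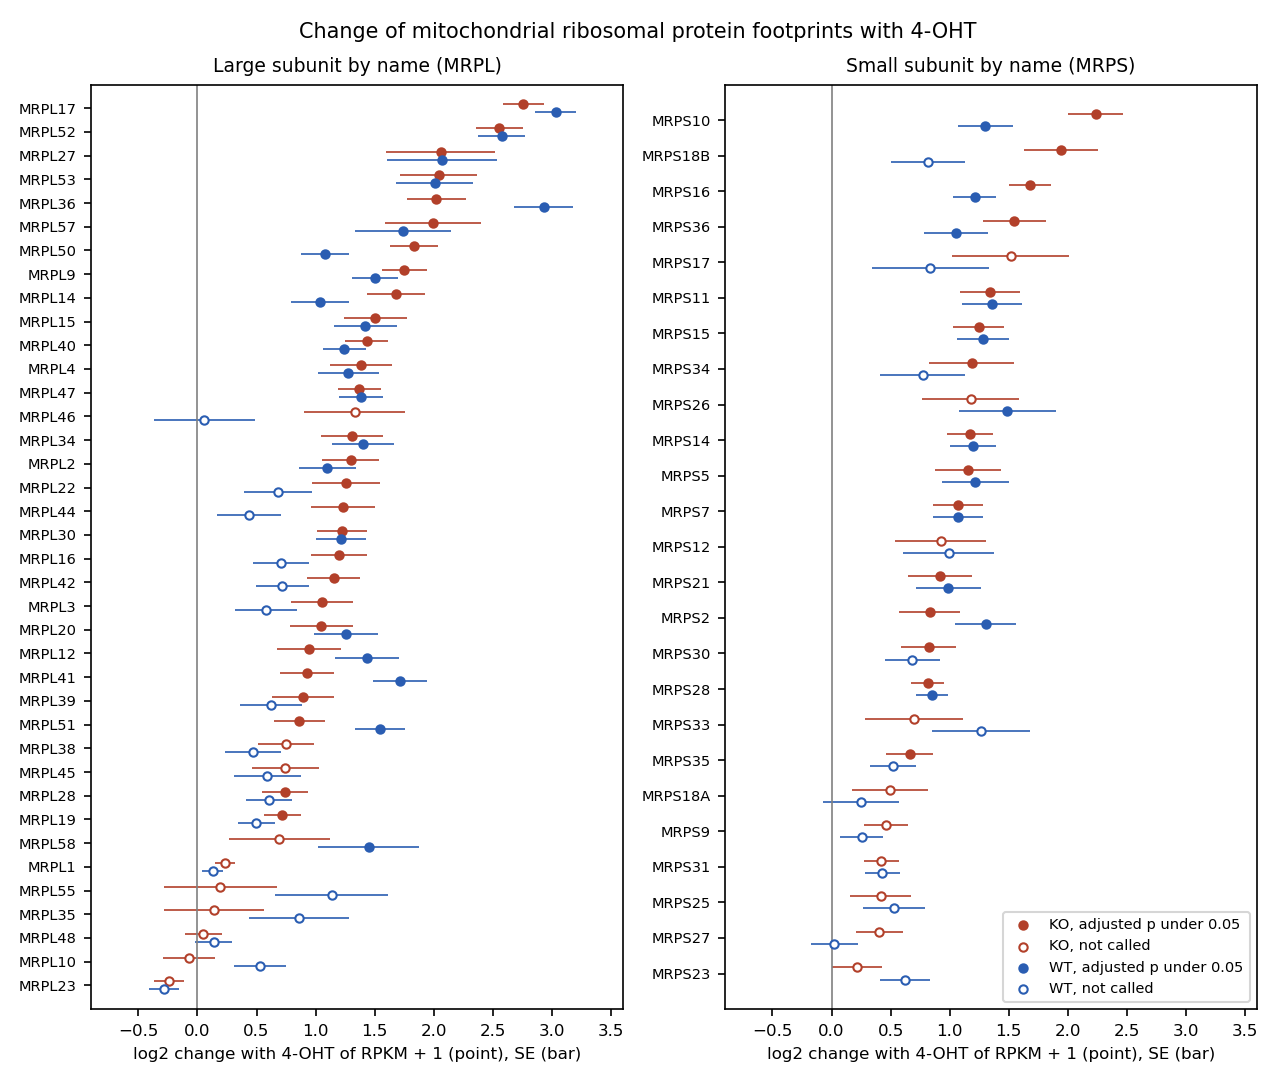
Log2 change with 4-OHT of each tested member on the RPKM + 1 scale, MRPL genes on the left and MRPS genes on the right, KO clones in red above WT clones in blue, with the SE of limma-trend as bars. Filled points passed an adjusted p of 0.05; all but MRPL23 and, in KO clones, MRPL10 lie right of 0.

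Among proteins of the large subunit, MRPL17 had the largest change on the log2(RPKM + 1) scale. It is the counterpart of bacterial L17, which sits near the exit of the peptide tunnel, and its gene spans 2.96 kb on chromosome 11. MRPL17 had 294 and 279.8 RPKM in KO clones with 4-OHT, against 39.8 and 43.5 RPKM in KO clones without it. In WT clones it had 277 and 285 RPKM with 4-OHT, against 36.96 and 30.4 RPKM without. The groups did not overlap, with log2 changes of 2.76 ± 0.17 (SE) in KO clones (limma adjusted p = 0.000161) and 3.03 ± 0.17 (SE) in WT clones (limma adjusted p = 0.000133). It alone held between 11.8% and 11.96% of all member reads with 4-OHT and between 3.26% and 4.95% without. Its recovered reads were whole in only 3 of the 8 libraries, so the span used for it, and with it these shares, are less sure.

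MRPL36, the counterpart of the small bacterial protein L36, had 29.9 and 32.1 RPKM in KO clones with 4-OHT, against 8.55 and 5.49 RPKM in KO clones without it. Its WT values were 33.8 and 35.9 RPKM with 4-OHT, against 4.57 and 2.97 RPKM without. The clones with 4-OHT thus lay between 29.9 and 35.9 RPKM and those without between 2.97 and 8.55 RPKM, with both WT clones lowest. In WT clones its ratio of mean RPKM, 9.25, was above the 8.35 of MRPL17, and so was its limma-voom log2 change, 3.11 against 3.04. MRPL52, which occurs only in mitochondrial ribosomes, had 65.04 and 59.3 RPKM in KO clones with 4-OHT, against 8.17 and 11.6 RPKM in KO clones without it. In WT clones MRPL52 was at 70.7 and 65.5 RPKM with 4-OHT, against 10.4 and 10.8 RPKM without, close to the KO values in both states. Its log2 changes were 2.55 ± 0.1998 (SE) in KO and 2.57 ± 0.1998 (SE) in WT clones (limma adjusted p = 0.000335 and 0.000449).

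MRPL27, whose bacterial counterpart L27 reaches into the peptidyl transferase centre, had 18.6 and 13.7 RPKM in KO clones with 4-OHT, against 1.45 and 5.803 RPKM in KO clones without it. In WT clones it had 15.1 and 13.4 RPKM with 4-OHT, against 3.54 and 1.89 RPKM without. The 2 KO clones without 4-OHT lay far apart, but both were below every clone with 4-OHT. MRPL53 had 67.2 and 49.3 RPKM in KO clones with 4-OHT, against 11.1 and 15.8 RPKM in KO clones without it, and in WT clones 76.9 and 119 RPKM with against 18.3 and 28.8 RPKM without. Both are small genes called higher in each genotype. MRPL57 rose with log2 changes of 1.99 in KO and 1.74 in WT clones, MRPL9 with 1.75 and 1.503, and MRPL50 with 1.83 and 1.08, all with limma adjusted p below 0.05.

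The stalk of the large subunit, which recruits translation factors, gave an uneven picture. MRPL12, the stalk protein itself, had 29.03 and 38.02 RPKM in KO clones with 4-OHT, against 13.1 and 21.4 RPKM in KO clones without it, and 46.99 and 61.4 RPKM in WT clones with 4-OHT, against 19.9 and 18.6 RPKM without. It rose in both genotypes (log2 changes 0.95 in KO and 1.44 in WT clones, limma adjusted p = 0.0379 and 0.00973). MRPL10, which anchors the stalk, had 4.43 and 6.28 RPKM in KO clones with 4-OHT, against 5.63 and 5.58 RPKM in KO clones without it. Its KO groups overlapped, with a log2 change of -0.07 ± 0.22 (SE) that was 0.09 by limma-voom, and the WT change of 0.53 ± 0.22 (SE) did not pass (limma adjusted p = 0.137).

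Other large-subunit proteins with known roles followed the group in part. MRPL41, which occurs only in mitochondria, had 132 and 185 RPKM in KO clones with 4-OHT, against 94.99 and 69.9 RPKM in KO clones without it. It had 221 and 231 RPKM in WT clones with 4-OHT, against 67.04 and 69.1 RPKM without, and rose in both. MRPL44, which has the fold of an RNase III enzyme, rose in KO clones (log2 change 1.23 ± 0.27 (SE), limma adjusted p = 0.01503) and had a log2 change of 0.44 in WT clones that did not pass. MRPL28 rose in KO clones by a log2 of 0.74 and had 0.603 in WT clones, where it did not pass but limma-voom called it (adjusted p = 0.0424). MRPL58, a peptidyl-tRNA hydrolase that frees stalled mitoribosomes, rose in WT clones (1.45, limma adjusted p = 0.0491). Its KO clones had 4.88 and 14.8 RPKM with 4-OHT, against 4.904 and 5.04 RPKM without, so that only clone 69 was higher, and limma-voom called it there too (adjusted p = 0.0115).

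Among proteins of the small subunit, MRPS10 changed most in KO clones. Its bacterial counterpart S10 lies in the head of the subunit. MRPS10 had 9.004 and 9.21 RPKM in KO clones with 4-OHT, against 1.304 and 1.005 RPKM in KO clones without it. In WT clones it had 7.03 and 5.38 RPKM with 4-OHT, against 2.39 and 1.49 RPKM without. Neither genotype's groups overlapped, and the log2 changes were 2.23 ± 0.23 (SE) in KO and 1.2996 ± 0.23 (SE) in WT clones (limma adjusted p = 0.000925 and 0.00775).

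MRPS16, a counterpart of bacterial S16 and a known mitochondrial disease gene, had 37.3 and 35.7 RPKM in KO clones with 4-OHT, against 9.93 and 11.6 RPKM in KO clones without it. In WT clones it had 28.3 and 29.1 RPKM with 4-OHT, against 10.8 and 12.99 RPKM without, and it was called in both genotypes. MRPS7, which contacts the small-subunit rRNA in the head, had 50.1 and 43.2 RPKM in KO clones with 4-OHT, against 20.2 and 23.1 RPKM in KO clones without it, and in WT clones 50.4 and 50.2 RPKM with against 27.7 and 19.7 RPKM without. Its log2 changes were alike at 1.07 in KO and 1.07 in WT clones. MRPS2, MRPS5, MRPS11, MRPS14 and MRPS15 also rose in both genotypes, with log2 changes between 0.83 for MRPS2 in KO clones and 1.36 for MRPS11 in WT clones.

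The S18 family has 2 listed members. MRPS18B, which belongs to the small subunit, had 22.1 and 21.9 RPKM in KO clones with 4-OHT, against 3.89 and 6.29 RPKM in KO clones without it, and in WT clones 16.7 and 11.7 RPKM with against 5.66 and 9.91 RPKM without. It rose in KO clones (log2 change 1.94 ± 0.31 (SE), limma adjusted p = 0.00441) and had 0.82 ± 0.31 (SE) in WT clones, which did not pass, although limma-voom called it (adjusted p = 0.00787). MRPS18A, which despite its name lies in the large subunit (mL66), was called in neither, with log2 changes of 0.497 in KO and 0.25 in WT clones. MRPS30, also a large-subunit protein by its place (mL65), rose in KO clones by a log2 of 0.82 and had 0.68 in WT clones, which did not pass.

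MRPS34 and MRPS35, both found only in mitochondria, rose in KO clones (log2 changes 1.18 and 0.66, limma adjusted p = 0.0456 and 0.0441) and had 0.77 and 0.52 in WT clones, where they did not pass but limma-voom called both (adjusted p = 0.0449 and 0.0153). MRPS12, part of the decoding centre, had 16.9 and 27.6 RPKM in KO clones with 4-OHT, against 16.1 and 7.33 RPKM in KO clones without it. Its KO clones without 4-OHT differed from each other more than 2-fold. It was called in neither genotype by limma-trend, and in KO clones by limma-voom (log2 change 1.39, adjusted p = 0.02003). MRPS27, a pentatricopeptide repeat protein, had 0.982 and 0.556 RPKM in WT clones with 4-OHT, against 0.863 and 0.602 RPKM in WT clones without it, and the groups overlapped. In KO clones it had 1.35 and 0.818 RPKM with 4-OHT, against 0.495 and 0.632 RPKM without. The KO groups did not overlap, but the log2 change of 0.40 did not pass limma-trend. MRPS22 had 0.373 and 0.333 RPKM in KO clones with 4-OHT, against 0.189 and 0.143 RPKM without, and 0.309 and 0.334 RPKM in WT clones with 4-OHT, against 0.174 and 0.137 RPKM without. It was the 1 member that missed the read filter, and its recovered reads were not whole in 6 of the 8 libraries, so that the span used for it may not be the authors'. MRPS36, now named KGD4, is a subunit of the alpha-ketoglutarate dehydrogenase complex and not of the mitoribosome. It also rose in both genotypes, by a log2 of 1.55 in KO and 1.05 in WT clones.

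**Figure D2:**
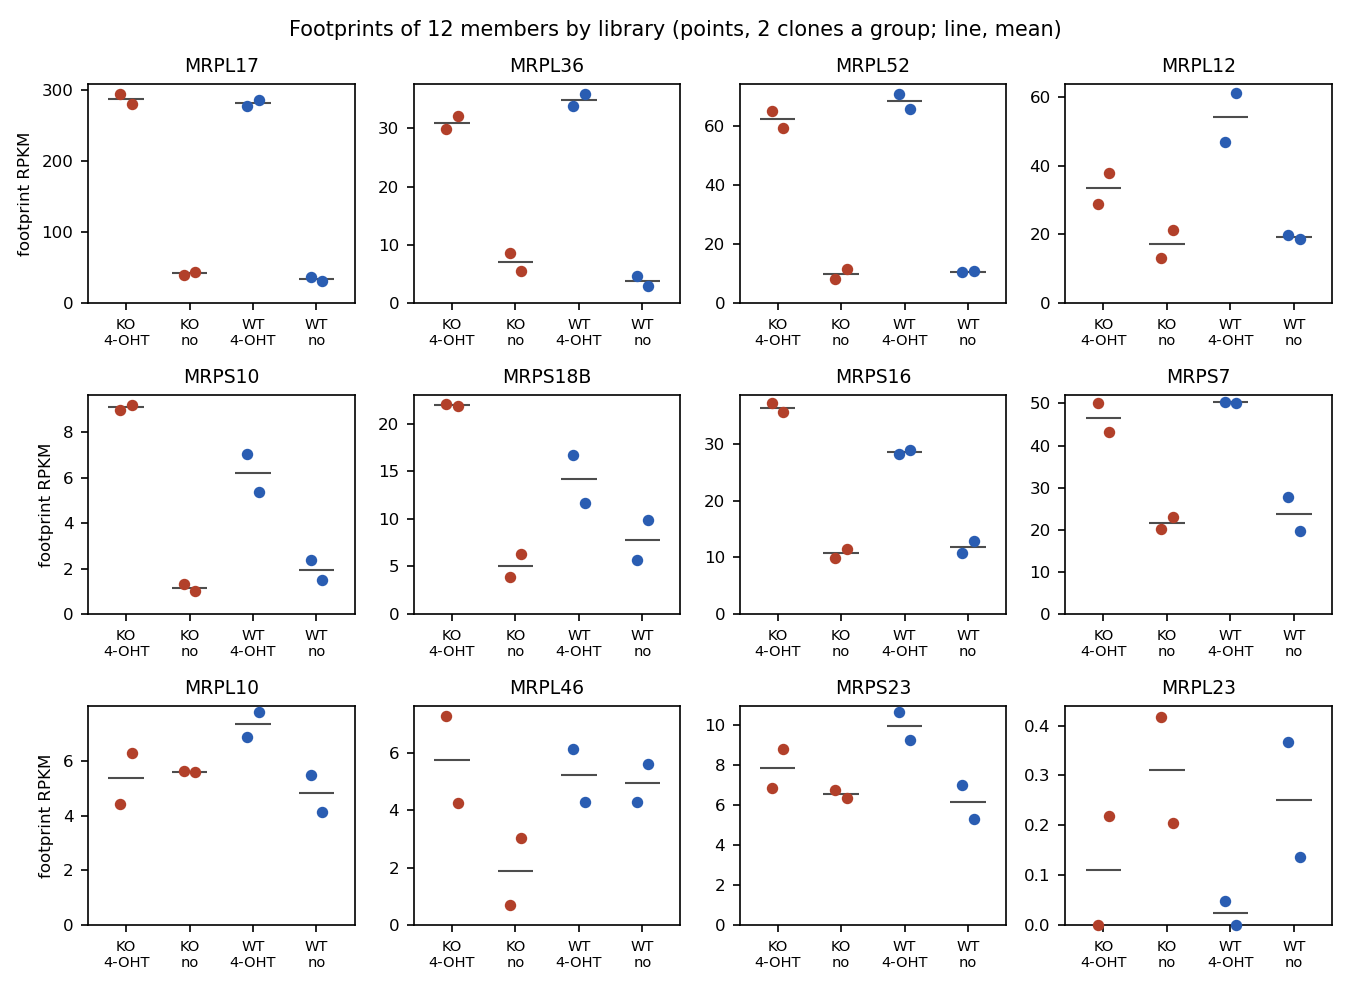
Footprint RPKM of 12 members in each of the 8 libraries, KO clones in red and WT clones in blue, with 4-OHT left of without, 2 clones a group and the mean as a line, each panel with its own axis from 0. MRPL17 reaches 277 to 294 RPKM with 4-OHT in all 4 clones, while the KO groups of MRPL10 overlap and MRPL23 is at 0 in 2 libraries with 4-OHT.

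MRPL23 moved the other way. This protein sits at the exit of the peptide tunnel. It had 0 and 0.219 RPKM in KO clones with 4-OHT, against 0.417 and 0.204 RPKM in KO clones without it, and 0.0478 and 0 RPKM in WT clones with 4-OHT, against 0.366 and 0.136 RPKM in WT clones without it. The value was lower with 4-OHT in 3 of 4 clones, but log2 changes of -0.24 ± 0.13 (SE) in KO and -0.28 ± 0.13 (SE) in WT clones did not pass limma-trend, and limma-voom called it lower in WT clones. A count of 0 allows up to 0.232 RPKM in KO clone 66 and 0.0753 RPKM in WT clone 54 over the RefSeq span of 67.6 kb, a span that gave whole reads in only 2 of the 8 libraries. The RefSeq span of MRPL23 also holds the noncoding RNA H19 and its microRNA MIR675, and the counting of reads in shared stretches is not given in the sources used here. Apart from MRPL10, the smallest positive changes in KO clones on the RPKM + 1 scale were those of MRPL48, MRPL35, MRPL55, MRPS23 and MRPL1. They lay between 0.05 for MRPL48 and 0.23 for MRPL1, and none of these members passed limma-trend in either genotype. This scale understates low genes such as MRPL1, whose KO means were 0.414 RPKM with and 0.202 RPKM without 4-OHT. Its limma-voom log2 change in KO clones was 0.96 and did not pass. By limma-voom MRPL35 and MRPS23 rose in WT clones (adjusted p = 0.0279 and 0.0284).

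The subunits were compared by their summed reads in each library. MRPL genes held 0.458% ± 0.0016 of reads with 4-OHT and 0.151% ± 0.013 without in KO clones, and 0.455% ± 0.0039 and 0.155% ± 0.0027 in WT clones (SD, n = 2 each). MRPS genes held 0.243% ± 0.017 with and 0.1003% ± 0.012 without 4-OHT in KO clones, and 0.240% ± 0.0085 and 0.111% ± 0.0035 in WT clones (SD, n = 2 each). The MRPL sum thus differed 3.03-fold and 2.94-fold in KO and WT clones and the MRPS sum 2.42-fold and 2.15-fold. These sums go by name, so MRPS18A, MRPS30 and MRPS36 count as MRPS.

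The ratio of MRPL to MRPS reads was 1.80 and 1.98 in KO clones with 4-OHT, against 1.56 and 1.47 in KO clones without it. In WT clones it was 1.94 and 1.86 with 4-OHT, against 1.41 and 1.38 without. The libraries with 4-OHT did not overlap those without, in either genotype. Without MRPL17, a step chosen after its values were seen, the ratio was 1.47 and 1.62 in KO clones with 4-OHT, against 1.43 and 1.35 without, and 1.59 and 1.53 in WT clones with 4-OHT, against 1.307 and 1.301 without. The groups still did not overlap, but lay closer. By place, MRPS18A and MRPS30 were counted as large and MRPS36 was left out. With MRPL17 kept, the ratio by place was 2.02 and 2.19 in KO clones with 4-OHT, against 1.76 and 1.73 without. In WT clones it was 2.16 and 2.07 with 4-OHT, against 1.67 and 1.58 without. The median of log2(RPKM + 1) over MRPL and over MRPS genes was also used in place of summed reads, which is another scale. The log2 change of the ratio was then -0.0070 in KO clones, where sums gave 0.32. In WT clones it was 0.11, where sums gave 0.45. Median RPKM in KO clones was 11.8 and 14.3 for MRPL and 7.11 and 7.57 for MRPS genes with 4-OHT. Without it the medians were 4.53 and 5.31, and 2.26 and 2.79. In WT clones they were 11.7 and 12.4, and 7.62 and 6.34, with 4-OHT. Without it they were 4.31 and 4.63, and 2.55 and 2.65.

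**Figure D3:**
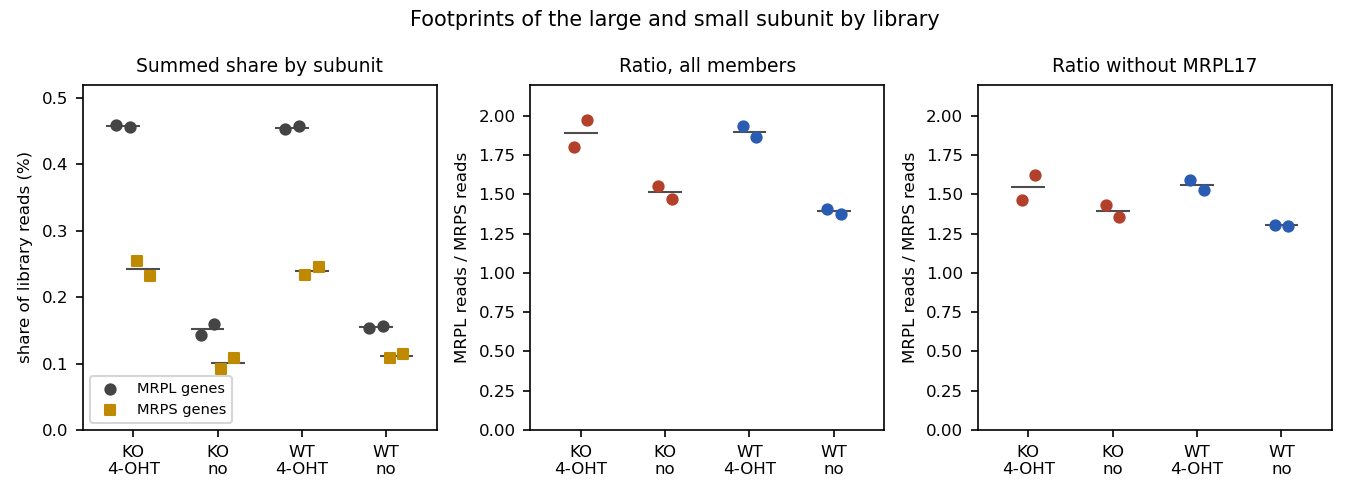
Share of library reads in MRPL and MRPS genes (left, %), and the ratio of MRPL to MRPS reads over all members (middle) and without MRPL17 (right), per library with the group mean as a line, 2 clones a group, with 4-OHT left of without. Both shares are higher in every library with 4-OHT, and the groups' ratios lie closer together without MRPL17.

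Counts of called members gave the subunits in the same order without a test between them. In KO clones 28 of 38 MRPL and 15 of 25 MRPS genes rose, with median log2 changes of 1.21 and 0.92, beside 17.3% and a median of 0.05 over all genes. In WT clones 21 of 38 MRPL and 12 of 25 MRPS genes rose, with medians of 1.12 and 0.99, beside 13.6% and 0.06. By limma-voom the shares were close to each other. They were 27 of 38 MRPL and 18 of 25 MRPS genes in KO clones, and 28 of 38 and 17 of 25 in WT clones. Over all genes limma-voom called 21.4% higher in each genotype. The limma-voom medians kept the order, at 1.44 for MRPL and 1.06 for MRPS genes in KO clones. In WT clones they were 1.38 and 1.15. By the origin of the proteins, taken from the family names in RefSeq, 11 of 13 with a counterpart only in bacteria rose in KO clones, 16 of 22 with counterparts in all kingdoms, and 14 of 26 found only in mitochondria. The counts in WT clones were 9 of 13, 13 of 22 and 9 of 26. By limma-voom the counts in KO clones were 9 of 13 for those shared with bacteria only, 18 of 22 for all kingdoms and 16 of 26 for mitochondria only, so that the order of the first 2 classes turned, and in WT clones they were 11 of 13, 16 of 22 and 16 of 26.

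Members have short genes, and short genes rose more with 4-OHT over the whole tables. The median span was 10.7 kb over members and 34.2 kb over all genes tested, 8.19 kb for MRPL and 12.4 kb for MRPS genes. Among other genes of up to 5 kb the median log2 change was 0.73 in KO and 0.71 in WT clones, and among those over 100 kb it was -0.02 in both. Members stood above the median of the other genes of like span in 59 of 63 cases in each genotype. In the class of 10 to 20 kb, for example, 13 of 17 members rose in KO clones with a median log2 change of 1.23, beside 21.4% and 0.21 over 1395 other genes. In WT clones 11 of these 17 rose with a median of 1.08, beside 17.1% and 0.23. Among members the Spearman correlation of span with log2 change was -0.436 in KO and -0.621 in WT clones by limma-trend, and -0.0995 and -0.266 by limma-voom. These are descriptions over 63 genes that share the same libraries. Levels per kb of span also went with span across members (Spearman -0.904 over 64 genes). Introns count in this length and levels per coding length were not computed here, so no order of levels between members is given.

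**Figure D4:**
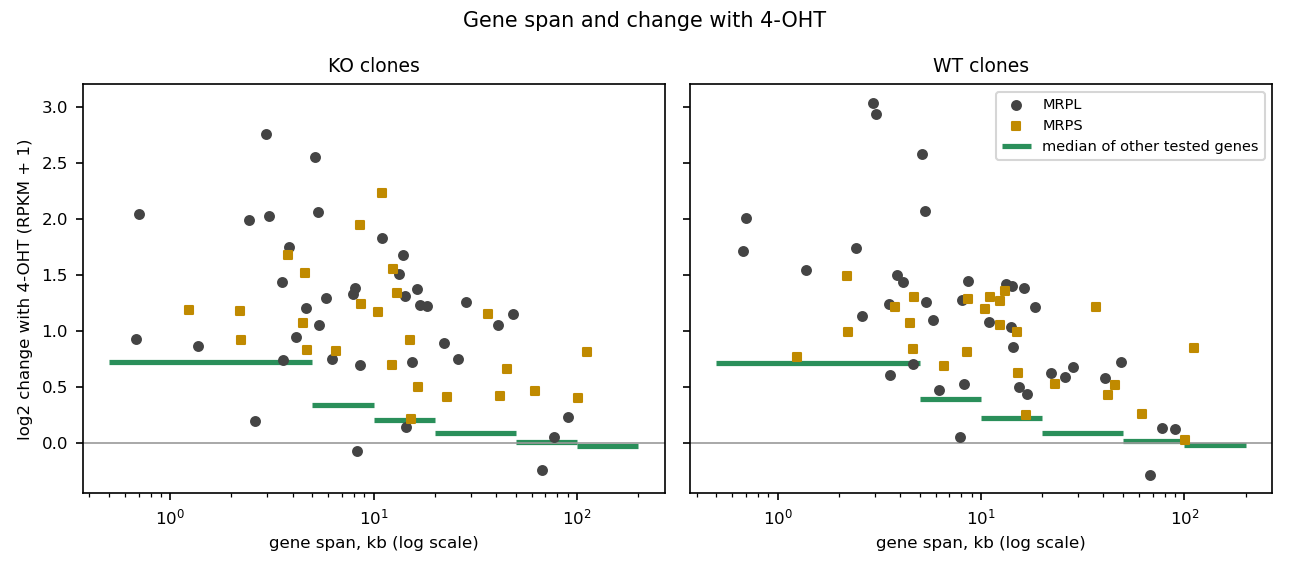
Log2 change with 4-OHT on the RPKM + 1 scale against gene span in kb (log scale) for MRPL (circles) and MRPS genes (squares), KO clones left and WT clones right. Green lines give the median of the other tested genes in 6 span classes, with the open ends of the first and last class shortened. In each genotype 59 of 63 members lie above the line of their class.

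The change with 4-OHT was compared between the genotypes by the test of that difference. None of 63 members was called (limma-trend interaction, smallest adjusted p = 0.857), and 0% of all 8698 genes were. At an unadjusted p below 0.05 there were 5 members, beside 450 of all 8698 genes. Limma-voom called no member and 0.046% of all genes, with 3 members and 408 genes at an unadjusted p below 0.05. A p that misses the threshold does not show that the genotypes respond alike. The 4 members with the smallest p were MRPS10, MRPL50 and MRPS18B, whose change was larger in KO clones by a log2 of 0.93 ± 0.33 (SE), 0.75 ± 0.29 (SE) and 1.13 ± 0.44 (SE), and MRPL36, with -0.91 ± 0.36 (SE). MRPL50 had 6.199 and 6.395 RPKM in KO clones with 4-OHT, against 1.21 and 0.905 RPKM in KO clones without it, and 4.695 and 4.48 RPKM in WT clones with 4-OHT, against 1.38 and 1.96 RPKM without. The median difference of the changes, KO minus WT, was 0.04 over members, with quartiles of -0.09 and 0.28 and a median SE of 0.35. Across the 63 members the log2 changes in KO and WT clones, which share no library, had a Pearson correlation of 0.729, given as a description. The Spearman correlation was 0.630. Any batch between cells with and without 4-OHT would enter both changes, and the correlation over all genes is not given here.

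**Figure D5:**
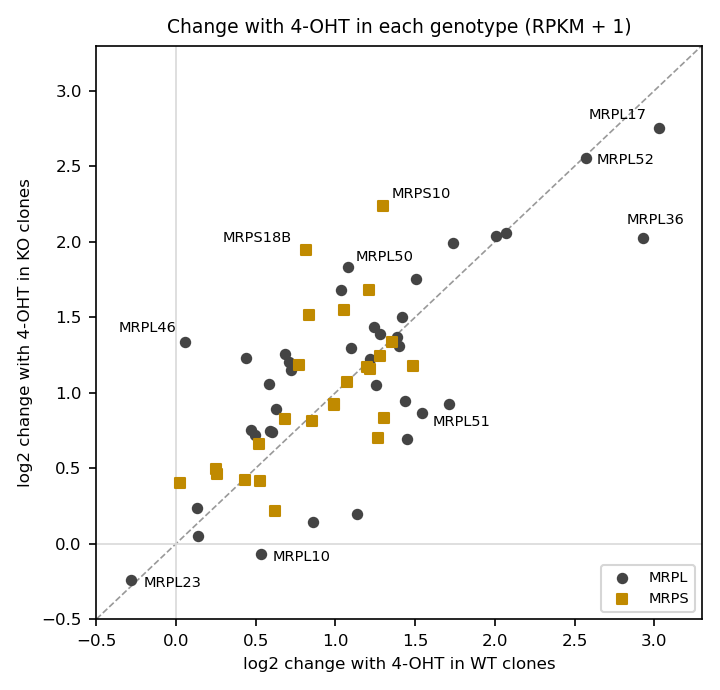
Log2 change with 4-OHT in KO clones (vertical) against WT clones (horizontal) for 63 members, MRPL as circles and MRPS as squares, with the dashed line where both are equal. MRPL17 and MRPL52 lie high in both, MRPS10, MRPS18B and MRPL46 above the line, and MRPL23 below 0 in both.

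Between genotypes within a treatment, no member was called. Without 4-OHT 0 of 62 members passed in KO against WT clones (limma-trend, smallest adjusted p = 0.580), 7 had an unadjusted p below 0.05, and limma-voom called none. Over all 8066 genes limma-trend called 0% and limma-voom 0.744%, and 686 had an unadjusted p below 0.05 by limma-trend. MRPS33 had 3.32 and 2.23 RPKM in KO clones without 4-OHT, against 1.53 and 1.02 RPKM in WT clones without it, and a log2 difference of 0.72 ± 0.23 (SE). MRPL46 had 0.701 and 3.03 RPKM in KO clones without 4-OHT, against 4.303 and 5.59 RPKM in WT clones without it, and a log2 difference of -1.18 ± 0.41 (SE). KO clone 66 was the low one, with about 5 recovered reads against 41 in KO clone 69, and the groups did not overlap. MRPL36 differed by 0.74 ± 0.28 (SE) and MRPL53 by -0.75 ± 0.28 (SE), MRPL36 with higher values in both KO clones and MRPL53 with lower ones. MRPS33, MRPL46, MRPL36 and MRPL53 were picked as the members with the smallest p. The share of all genes with groups so separated is not given here, so the separation only describes them.

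With 4-OHT 0 of 62 members passed in KO against WT clones (limma-trend, smallest adjusted p = 0.823), 1 had an unadjusted p below 0.05, and limma-voom called none. Over all 7675 genes limma-trend called 0% and limma-voom 0.508%, and 365 had an unadjusted p below 0.05 by limma-trend. MRPL12, the member with the smallest p, had 29.03 and 38.02 RPKM in KO clones with 4-OHT, against 46.99 and 61.4 RPKM in WT clones with it. Its log2 difference was -0.68 ± 0.25 (SE) and both KO clones lay below both WT clones. As MRPL12 was picked by its p and the share of all genes so separated is not given here, this only describes it. MRPS18B had 22.1 and 21.9 RPKM in KO clones with 4-OHT, against 16.7 and 11.7 RPKM in WT clones with it, a log2 difference of 0.62 ± 0.25 (SE) in the other direction. MRPL53 differed by -0.72 ± 0.299 (SE) and MRPL44 by 0.66 ± 0.298 (SE). The median difference over members, KO minus WT, was -0.09 without and 0.03 with 4-OHT, beside -0.01 and -0.01 over all genes. Without KO clone 69, which leaves the shallow clone 66 as the lone KO library with 4-OHT, 2 members were called lower in KO by limma-trend, MRPL58 (log2 difference -1.52, adjusted p = 0.00768) and MRPL48 (-0.38, adjusted p = 0.00996), where 9.22% of all genes were called lower, and MRPL48 was at 0 in clone 66.

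Of 5 tested proteins of the mitoribosome that are not named MRP, 3 rose in each genotype, where 17.3% of all genes rose in KO and 13.6% in WT clones. GADD45GIP1 (CRIF1, at the tunnel exit) had 93.2 and 61.8 RPKM in KO clones with 4-OHT, against 9.99 and 15.7 RPKM in KO clones without it, and 71.9 and 99.7 RPKM in WT clones with 4-OHT, against 16.95 and 22.5 RPKM without. CHCHD1 and AURKAIP1 of the small subunit rose as well, with log2 changes of 2.004 and 1.404 in KO and 1.85 and 1.31 in WT clones. DAP3, the GTP-binding protein of the small subunit, and PTCD3, its pentatricopeptide repeat protein, passed in neither, with log2 changes of -0.08 and 0.67 in KO and 0.43 and 0.0095 in WT clones.

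The machinery around the mitoribosome is given by counts, with no test against the members. Of 24 assembly and rRNA modification factors, 7 rose in KO clones, where 17.3% of all genes did, and 4 in WT clones, where 13.6% did, a share near that of all genes, and none fell. The largest change was that of TFB1M, which dimethylates the small-subunit rRNA, with 3.95 and 2.13 RPKM in KO clones with 4-OHT, against 0.209 and 0.1503 RPKM in KO clones without it, and 2.804 and 2.33 RPKM in WT clones with 4-OHT, against 0.117 and 0.238 RPKM without. MALSU1, an assembly factor of the large subunit, rose by 1.52 in KO and 0.99 in WT clones. Of 14 translation factors 3 rose in KO clones and 1 in WT clones, near those shares in KO and below them in WT clones, among them the elongation factor TUFM in both (log2 changes 0.77 and 0.77) and the membrane insertase OXA1L in KO clones (1.27). Of 15 mitochondrial aminoacyl-tRNA synthetases and amidotransferase subunits none was called in KO clones, where none had an unadjusted p below 0.05 either, and 1 rose in WT clones, WARS2. Their median log2 changes were -0.04 in KO and 0.06 in WT clones, near those of all genes. Of 4 mitochondrial transcription factors 1 rose in KO clones, TFB2M (0.89), and none in WT clones, where 1 had an unadjusted p below 0.05.

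Other mitochondrial groups and the cytosolic ribosome are given for scale. Beside the 17.3% and 13.6% of all genes that rose in KO and WT clones, 7 of 18 protein import genes rose in KO and 8 in WT clones, led by the outer membrane protein TOMM6 (1.98 and 2.08) and the carrier chaperone TIMM10 (1.901 and 2.19). Beside the same shares, 6 of 15 genes of the tricarboxylic acid cycle rose in KO and 7 in WT clones, among them the citrate synthase CS (1.02 and 0.98). Of 56 cytosolic ribosomal proteins, 42 rose in KO and 43 in WT clones and 1 fell in WT clones, RPL13A, with median log2 changes of 1.32 and 1.39. The medians of the mitochondrial ones were 1.15 and 1.05, and the difference between the lists was not tested. Of the mitochondrially encoded mRNAs, which mitoribosomes translate, MT-CO2 was the 1 tested and had 1746 and 1408 RPKM in KO clones with 4-OHT, against 19.5 and 23.1 RPKM in KO clones without it, and 665 and 320.2 RPKM in WT clones with 4-OHT, against 12.2 and 1.85 RPKM without. It rose in both genotypes by a log2 of 6.14 and 6.24 (limma adjusted p = 0.00105 and 0.00111). The span used to filter MT-CO2 was that of its nuclear pseudogene MTCO2P12, which RefSeq lists under the same older name and which is of near-equal length, and reads may be shared with such copies. MT-ATP6, MT-ATP8 and MT-ND4L found no span under their names and were not tested, and their values were also higher in each clone with 4-OHT than in the same clone without it. Whether these mitochondrial footprints, which come from mitoribosomes, are captured alike in both tables was not tested.

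The genome holds more members than the tables. RefSeq lists 77 protein-coding genes named MRPL or MRPS, of which 63 are in both tables, MRPS36 being the other listed member under its older name. The 14 not analysed here are MRPL11, MRPL13, MRPL18, MRPL21, MRPL24, MRPL32, MRPL33, MRPL37, MRPL43, MRPL49, MRPL54, MRPS6, MRPS18C and MRPS24. Members lie on 21 chromosomes. Of the 64 members 25 overlap another RefSeq gene, 11 of them a protein-coding one, and their values are uncertain to the extent that reads in shared stretches were counted. MRPS28 shares its whole span with the readthrough gene TPD52-MRPS28, and MRPL34 shares 10853 bases with ABHD8. Within 1000 bases 15 members have a gene starting in the opposite direction. One such pair is MRPL46 and MRPS11, of different subunits, with starts 320 bases apart on chromosome 15. MRPS11 rose in both genotypes (log2 changes 1.34 in KO and 1.36 in WT clones), while MRPL46 did not pass, with 1.33 (limma adjusted p = 0.0542) and 0.06.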

How the data were processed

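Ribosome footprints, the mRNA pieces protected by translating ribosomes, were measured in 8 libraries of BJ fibroblast clones. The authors deposited 2 tables of protein-coding genes, one with and one without 4-OHT, and per the submitters' processing notes used STAR and GRCh38. The deposited values are RPKM, read as such from the values since the headers name no unit, with whole-gene spans as lengths. Low values stepped in whole reads (75.8% to 83.7% within 0.1 of a whole number), which gave approximate reads, with spans from RefSeq GRCh38.p14. For 24 of the 64 members reads were whole in under 4 libraries, so their reads are less sure.

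Genes with at least 10 reads in at least 2 libraries were tested with limma-trend (limma 3.58.1, R 4.3.3) on log2(RPKM + 1), with Benjamini-Hochberg adjustment over all genes tested and a threshold of 0.05. Such fold changes understate those of low genes. The planned test depended on the unit, and RPKM called for this one. Effects of 4-OHT and their difference between genotypes came from 1 fit of 8 libraries over genes in both tables, and KO against WT from each table alone. Tables were made with Python 3.11.15, pandas 2.3.3 and scipy 1.17.1, and the fits were tested on simulated data. Alternatives were a pseudocount of 0.1, no filter, median-ratio scaling, limma-voom on recovered reads, fewer or more libraries in a fit, a clone block and leaving out each library.

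The same clones with and without 4-OHT form pairs by the labels; deviations from the group means correlated at 0.00626 in KO and 0.146 in WT clones. Replicates are separate clones. Named genes were called members with the largest changes, those with the smallest p where none was called, members of a panel of known roles, and leading genes of the other lists. Naming members by level per coding length was not done, as no coding lengths were used here. Members and lists were chosen with earlier results of these data known.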

Additional observations from a re-analysis of the deposited data

How the results depend on the processing

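The number of members called higher with 4-OHT ranged from 20 to 42 in KO clones and from 15 to 23 in WT clones when 1 library at a time was left out, and none was then called lower. With 1 library left in a group, that library is assumed to vary like the others. Calls over all genes changed between these fits as well, though not in the same order as those of members. The ranges therefore do not describe members alone, and nothing about members is concluded from them. The highest count in KO clones came without KO clone 69 treated with 4-OHT, where calls over all genes rose. Leaving out any other library of the genotype lowered the calls over all genes. The median log2 change of MRPL genes ranged from 1.06 to 1.24 in KO and from 1.03 to 1.23 in WT clones, and that of MRPS genes from 0.88 to 1.17 in KO and from 0.86 to 1.04 in WT clones. With a pseudocount of 0.1 the medians were 1.51 for MRPL and 1.10 for MRPS in KO clones and 1.301 for MRPL in WT clones. Median-ratio scaling gave 0.95 and 0.68 in KO and 0.88 and 0.74 in WT clones. Limma-voom gave 1.44 for MRPL and 1.06 for MRPS in KO clones, and 1.38 and 1.15 in WT clones. It called 1 member lower in WT clones. All these medians stayed positive, while single members such as MRPL10 in KO clones changed sign, and the causes of the shifts were not tested.

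With clone as a replicate block 40 members were higher in KO clones and 34 in WT clones, beside 14.3% and 11.3% of all genes, against 43 and 33 without it. None was lower and no genotype difference was called, so that no count of adjusted calls moved by over 1.5 times. Genotype differences at an unadjusted p below 0.05 numbered 1 with the block and 5 without it among members, beside 428 and 450 of all 8698 genes. In KO against WT clones with 4-OHT, leaving out 1 library gave 0 to 2 members called lower. The log2 change of the MRPL to MRPS ratio was -0.0070 in KO and 0.11 in WT clones by the median of log2(RPKM + 1). By summed reads it was 0.15 and 0.26 without MRPL17, a setting chosen after seeing the data. With subunits by place it was 0.38 in WT clones. It ranged from 0.25 to 0.39 in KO and from 0.42 to 0.48 in WT clones with 1 library left out. Of the values of single named members under the alternatives, 475 kept their direction and side of the threshold and 89 lost a call. KO clone 66 with 4-OHT was the shallowest library and had 2 members at 0, which its depth cannot tell from a low level.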
